A study of Homo sapiens with 12 samples.

Results

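The genes of the RAB GTPases and of the vesicle trafficking machinery named VPS or SNX were followed through a block of transcription in NOMO-1 cells, a human line established from an acute myeloid leukaemia. Every row whose symbol starts with RAB, VPS or SNX and a digit was taken, which gave 101 of the 9529 genes in the deposited table, namely 46 RAB, 32 VPS and 23 SNX rows. The choice rests on the symbols and on no measured value. Among the 101 genes, 5 were left without a trafficking role: the antisense RNAs RAB11B-AS1, RAB30-AS1 and VPS9D1-AS1, the readthrough transcript RAB4B-EGLN2 and the pseudogene SNX29P2. All 101 had a mean signal of at least 1 over the libraries and were tested, the lowest mean being 2.1, and 87 had a mean of at least 5.

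The cells carried a hairpin against ALKBH5 (shALKBH5) or a non-targeting hairpin (shNS), all after lentiviral transduction and puromycin selection. ALKBH5 is an enzyme that removes N6-methyladenosine from RNA. Each arm was sampled after 0, 8 and 12 h of actinomycin D, which stops RNA synthesis, so that the signal left at a later time reflects how long an RNA lasts. The 12 libraries of poly(A) RNA form 6 groups of 2. Each shALKBH5 group holds 1 library of each of 2 hairpins, called line D and line E after letters in the deposited table, since the sources used here do not say which letter is which hairpin. Each shNS group holds replicates 1 and 2, and nothing says that they came from separate cultures, so p-values measure no more than how these libraries vary, which may be technical. The labels' treatment protocol speaks of a virus against FTO and of other drugs, and the sample titles were followed.

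The targeted gene ALKBH5 (GRCh38 chr17:18183078-18209954) had a signal of 25.4 and 21.2 in lines D and E at 0 h, against 84.3 and 78.6 in the shNS replicates. It was lower in both lines at every time, with 1.52 and 4.29 against 35.9 and 32.1 at 8 h, and 0.636 and 0.973 against 8.22 and 8.30 at 12 h. Summed over all genes, a library held a signal of 826000 to 953211 before the drug, of 390103 to 580217 after 8 h and of 143765 to 193639 after 12 h, while the median of 46 ERCC spike-in transcripts stayed between 29.9 and 33.1. The sum of the spike-ins was less steady, at 31179 to 32570 at 0 h and 25610 to 26008 at 12 h. At 8 h it was 26870 and 26263 in lines D and E, against 30030 and 29060 in shNS. The deposited table thus follows the median of the spike-ins, holds no counts, and gives no read depth. Of 12 myeloid markers 9 were in the table, and of the erythroid, megakaryocyte and epithelial lists 0 of 4, 3 and 5. Myeloid markers themselves moved with the knockdown in limma: 4 of the 9 were higher at 0 h, where 1.33% of all genes were. Across the times 6 were higher, where 11.9% of all genes were, in a fit that treats libraries of a line as independent. Among them ELANE had 1723 and 2086 in lines D and E against 686 and 701 in shNS at 0 h. The lines lay apart for the marker ITGAM, with 25.6 and 8.00 in lines D and E against 4.50 and 5.68 in shNS at 0 h. The part of these markers in the results on trafficking genes was not tested.

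RAB proteins are small GTPases that mark the membranes of the endoplasmic reticulum, Golgi, endosomes, lysosomes and secretory granules, and recruit tethers, motors and sorting machinery while bound to GTP. VPS proteins, first found in yeast mutants that missorted vacuolar proteins, form the retromer that retrieves cargo from endosomes, the HOPS and CORVET tethers that fuse endosomes and lysosomes, the GARP tether of the Golgi and the ESCRT complexes that bud vesicles into endosomes. Sorting nexins (SNX) bind phosphoinositides of endosomes and shape or sort there. In myeloid cells these routes serve phagocytosis, granule release and receptor turnover.

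The mean signal at 0 h in shNS ran from 3.19 for VPS9D1 to 311.6 for RAB7A, and since the sources used here do not say whether it is per length, levels were not compared between genes. Most trafficking RNAs declined in actinomycin D, as did most RNAs of the cell. The middle gene of the 101 kept 19.4 and 30.8% of its 0 h signal at 8 h in lines D and E, against 39.8 and 36.8% in shNS replicates 1 and 2. Over all genes the same medians were 23.9 and 33.6% in lines D and E, against 42.2 and 41.1% in shNS, so the median of the 101 genes was the lower one in each line. By 12 h the middle gene kept 9.68 and 9.62% in lines D and E, against 9.80 and 11.1% in shNS. In limma on log2(signal + 1), with Benjamini-Hochberg adjustment over all genes and a threshold of 0.05, 98 of the 101 were lower at 8 h than at 0 h in shALKBH5 and 94 in shNS, where 96% and 82.2% of all genes were lower. At 12 h all 101 were lower in shALKBH5 and in shNS (99.6% and 99.5% of all genes). These changes are per unit of spike-in, in which fewer cells and less RNA per cell cannot be told apart. After median-of-ratios scaling, which removes the common decline, 23 and 26 of the genes were lower and 14 and 10 higher at 8 h in shALKBH5 and shNS, so that 37 and 36 passed in either direction where 45% and 42.5% of all genes did.

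**Figure D1:**
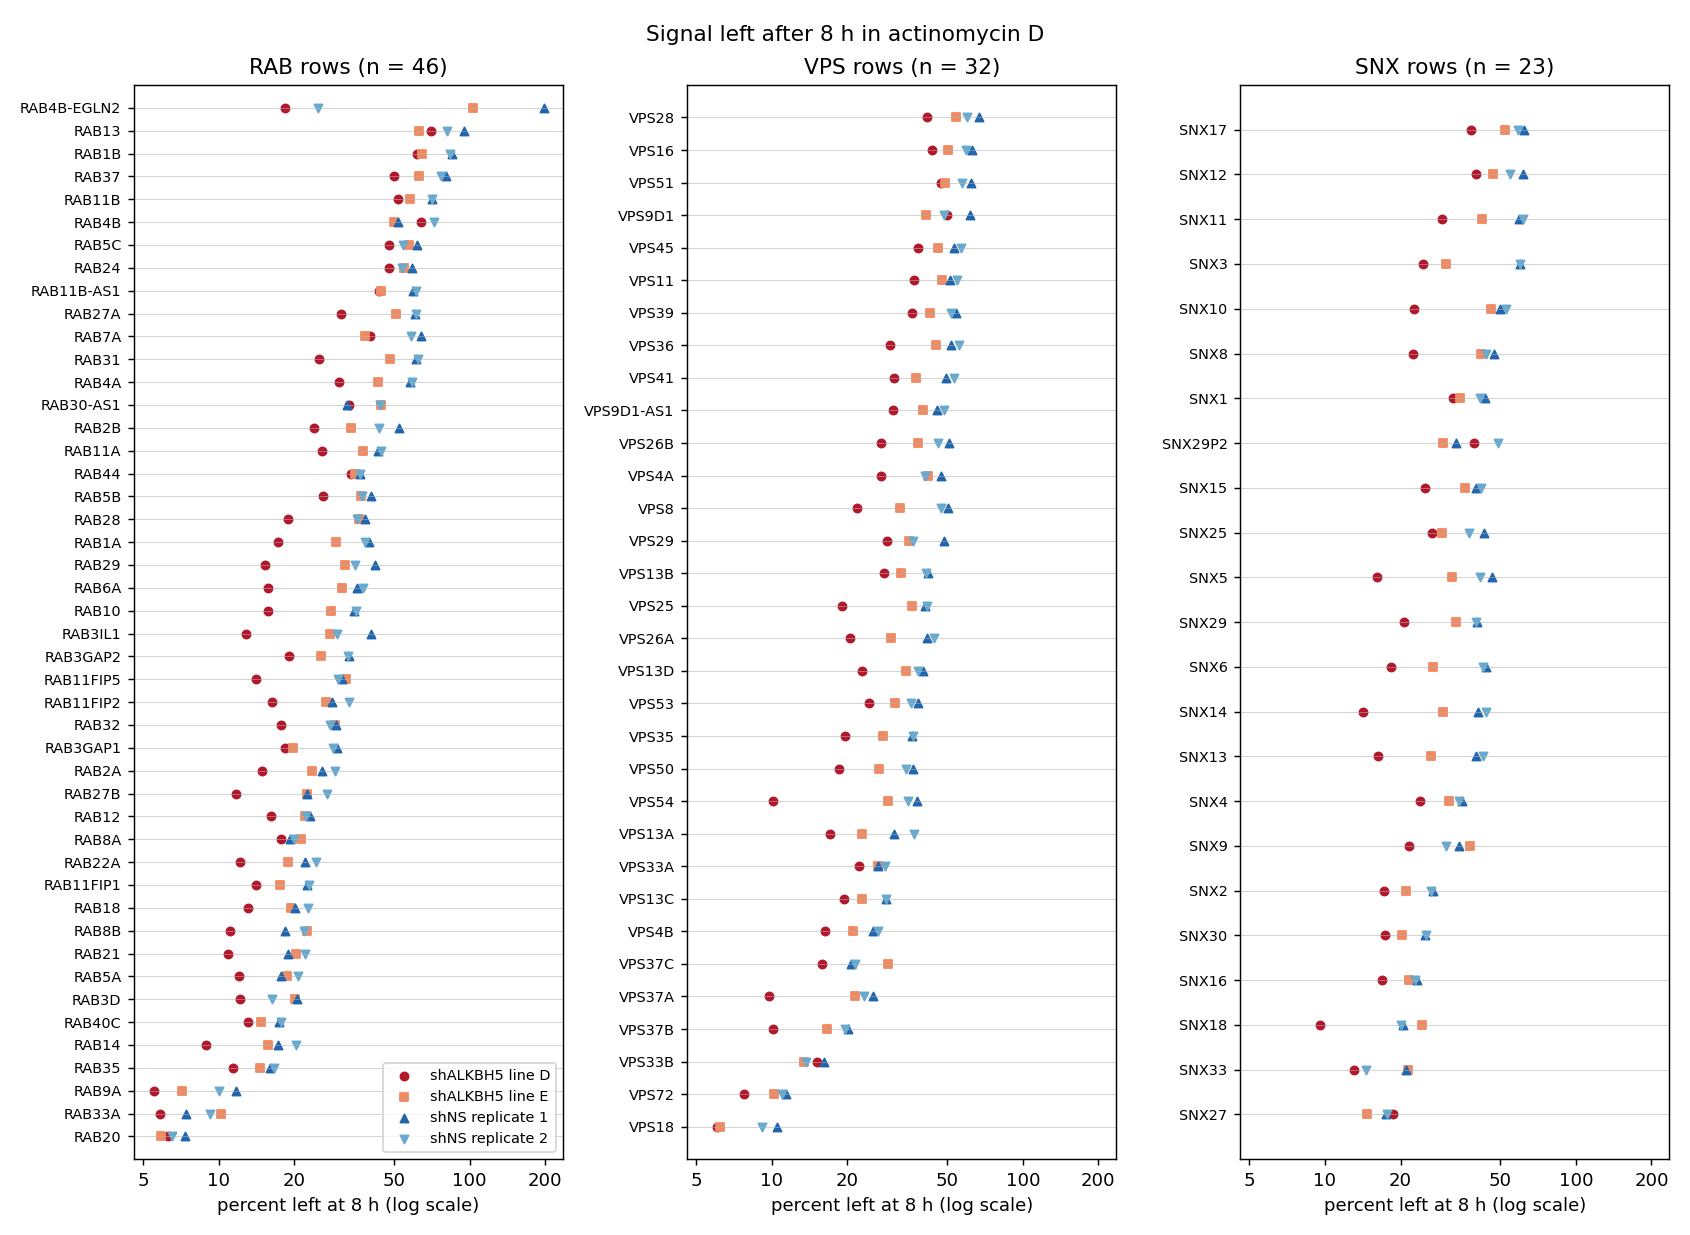
Percent of the 0 h signal left after 8 h (log axis) for each RAB, VPS and SNX gene, sorted by the mean of the 4 lines, with circles and squares for shALKBH5 lines D and E and triangles for the 2 shNS replicates. RAB20 is lowest among the RAB rows at 5.9 to 7.3% and RAB13 keeps 63.0 to 95.4%, while RAB4B-EGLN2 scatters from 18.4 to 196.9%.

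Single genes ranged from 5.50 to 70.3% left at 8 h in line D and from 5.86 to 103.6% in line E, against 7.32 to 196.9% and 6.50 to 83.1% in shNS replicates 1 and 2. Of the longest lasting, RAB13, a RAB of the plasma membrane and cell junctions, kept 70.3 and 63.0% at 8 h in lines D and E, against 95.4 and 80.9% in shNS, and 37.5 and 19.6% against 39.0 and 31.5% at 12 h. RAB1B, which drives transport between endoplasmic reticulum and Golgi, kept 61.4 and 64.7% at 8 h in lines D and E, against 84.8 and 83.1% in shNS. RAB37, a RAB of secretory granules, kept 49.96 and 62.8% against 80.7 and 76.6%. By the mean of the 4 lines at 8 h these 3 genes stood at percentile 92.6 of all genes or above. Their 8 h change in shNS did not pass the test, which depends on the SE too. RAB37 had a log2 change of -0.34 ± 0.42, and SNX3 failed as well at -0.73 ± 0.53, while RAB11B passed at -0.49 ± 0.18. RAB11B, RAB4B, VPS28 and RAB5C followed with means of 55.3 to 62.9% at 8 h. RAB4B-EGLN2 had the highest mean, but its 0 h signals of 10.1 and 4.43 in lines D and E, against 1.97 and 8.75 in shNS, are low and scattered, and it shares most of its exons with RAB4B, so reads of the 2 cannot be told apart with certainty.

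RAB20, an endosomal RAB of phagosome maturation, had the lowest mean of the 4 lines at 8 h: 6.29 and 5.86% were left at 8 h in lines D and E, against 7.32 and 6.50% in shNS. The mean of 6.49% was at percentile 0.336 of all genes, and its mean was also the lowest of the 101 at 12 h, with 4.73 and 2.79% in lines D and E, against 2.57 and 2.86% in shNS. VPS18, a core subunit of HOPS and CORVET, kept 6.06 and 6.23% at 8 h in lines D and E, against 10.5 and 9.14% in shNS. RAB33A, a Golgi RAB, kept 5.84 and 10.2% against 7.43 and 9.19%. RAB9A, which returns receptors from late endosomes to the Golgi, kept 5.50 and 7.10% against 11.7 and 9.99%. VPS72 was next with a mean of 10.1%, and despite its yeast name it encodes a subunit of chromatin remodelling complexes. VPS33B, RAB35 and RAB14 had means of 14.6 to 15.6%. In all 4 lines, 28 of the 101 genes kept more than the median gene of the line at 8 h and 47 kept less. At 12 h the counts were 26 and 45. The same counts were not made over all genes, so they do not show a trait particular to these genes.

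Genes of the same complex often differed in how much RNA was left. Among the HOPS, CORVET and related tethers, VPS16, VPS11, VPS39, VPS41 and VPS8 kept 38.0 to 54.1% at 8 h as means of the 4 lines, whereas VPS33A, the Sec1/Munc18-like partner of VPS16, kept 25.9% and VPS33B, its relative in another complex, 14.6%. The subunits VPS16 and VPS18 of the same tether thus lay at 43.7 and 50.4% against 6.06 and 6.23% in lines D and E, and at 63.0 and 59.3% against 10.5 and 9.14% in shNS. In ESCRT-I, VPS28 kept 41.7 and 54.3% in lines D and E, against 66.7 and 59.98% in shNS, while its partners VPS37A, VPS37B and VPS37C had means of 16.6 to 21.8%. The retromer core varied less, with means of 29.9% for VPS35, 34.1% for VPS26A, 37.3% for VPS29 and 40.5% for VPS26B. In the GARP tether, VPS51 had a mean of 53.8% and VPS54 of 28%. SNX17, an adaptor for receptor recycling, had the highest mean among the SNX genes, 52.8%, and SNX27, a retromer adaptor with a PDZ domain, the lowest, 17.1%.

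Some closely related RABs differed in how much RNA was left, although their proteins are nearly alike. RAB1A kept 17.2 and 29.4% at 8 h in lines D and E, against 39.8 and 38.1% in shNS, so that its highest value was below the lowest of RAB1B, 61.4%. The encoded proteins share 93.5% of their aligned residues. The RAB5 genes, which direct fusion of early endosomes, formed 3 steps: RAB5A kept 12.0 to 20.7% over the 4 lines, RAB5B 25.9 to 40.6% and RAB5C 47.9 to 61.7%. RAB11A and RAB11B, which share 92.1% of residues and serve recycling endosomes, kept 25.8 to 44.4% and 51.8 to 71.0%. The same separation held at 12 h for each of these sets, with 5.68 to 11.2% for RAB1A and 21.1 to 31.0% for RAB1B.

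A stretch of 9 codons around the catalytic glutamine of the switch II loop, which each RAB shown here encodes, shows how the coding sequences differ while the encoded loop is almost constant. The sequences are from the GENCODE release 29 transcripts on GRCh38, 5′ to 3′ on the coding strand, with capitals for G or C at the third position of a codon.
RAB1A: tgGgaCacagcaggCcaGgaaagattt
RAB1B: tgGgaCacagcGggCcaGgaacgGttC
RAB5A: tgGgatacagctggtcaagaacgataC
RAB5B: tgGgaCacagctggGcaGgaGcgatat
RAB5C: tgGgaCacagctggacaGgaGcgGtat
RAB11A: tgGgaCacagcaggGcaagaGcgatat
RAB11B: tgGgaCacCgctggCcaGgaGcgCtaC
RAB35: tgGgaCacagcGggGcaGgaGcgCttC
The stretches lie in coding exons at chr2:65091052-65091078 (minus strand) for RAB1A, chr11:66272365-66272391 (plus) for RAB1B, chr3:19975657-19975683 (plus) for RAB5A, chr12:55990003-55990029 (plus) for RAB5B and chr17:42128718-42128744 (minus) for RAB5C. Those of RAB11A, RAB11B and RAB35 lie at chr15:65877484-65877510 (plus), chr19:8400015-8400041 (plus) and chr12:120103843-120103869 (minus). Of the 9 codons, 4 end in G or C in RAB1A and 7 in RAB1B, 2, 5 and 5 in RAB5A, RAB5B and RAB5C, and 4 in RAB11A and 8 in RAB11B. RAB35 is shown because it goes the other way: 8 of its 9 codons end in G or C, yet it was among the fastest lost, with 11.4 and 14.5% left at 8 h in lines D and E, against 15.97 and 16.6% in shNS.

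Over the whole coding sequence the share of codons ending in G or C was 41.5% in RAB1A and 76.1% in RAB1B, 30.2, 57.7 and 65.7% in RAB5A, RAB5B and RAB5C, and 35.6 and 88.1% in RAB11A and RAB11B. In the 12 pairs of paralogues whose proteins were at least 70% identical, the gene with more RNA left on average at 8 h had the higher share in 12 and at 12 h in 11. It had the shorter 3′ UTR in 8 and 7 of the pairs, and fewer ATTTA motifs on the transcript strand of the 3′ UTR in 10 and 9. The 3 RAB5 pairs share genes, and in 7 of the 12 pairs at 8 h and 8 at 12 h the ranges over the lines did not overlap. In the other 10 pairs, under 70% identical, the gene with more left had the higher share in 6 at 8 h and in 7 at 12 h. The paralogue groups were planned, but the cut of 70% and these counts were not, so they are descriptions.

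**Figure D2:**
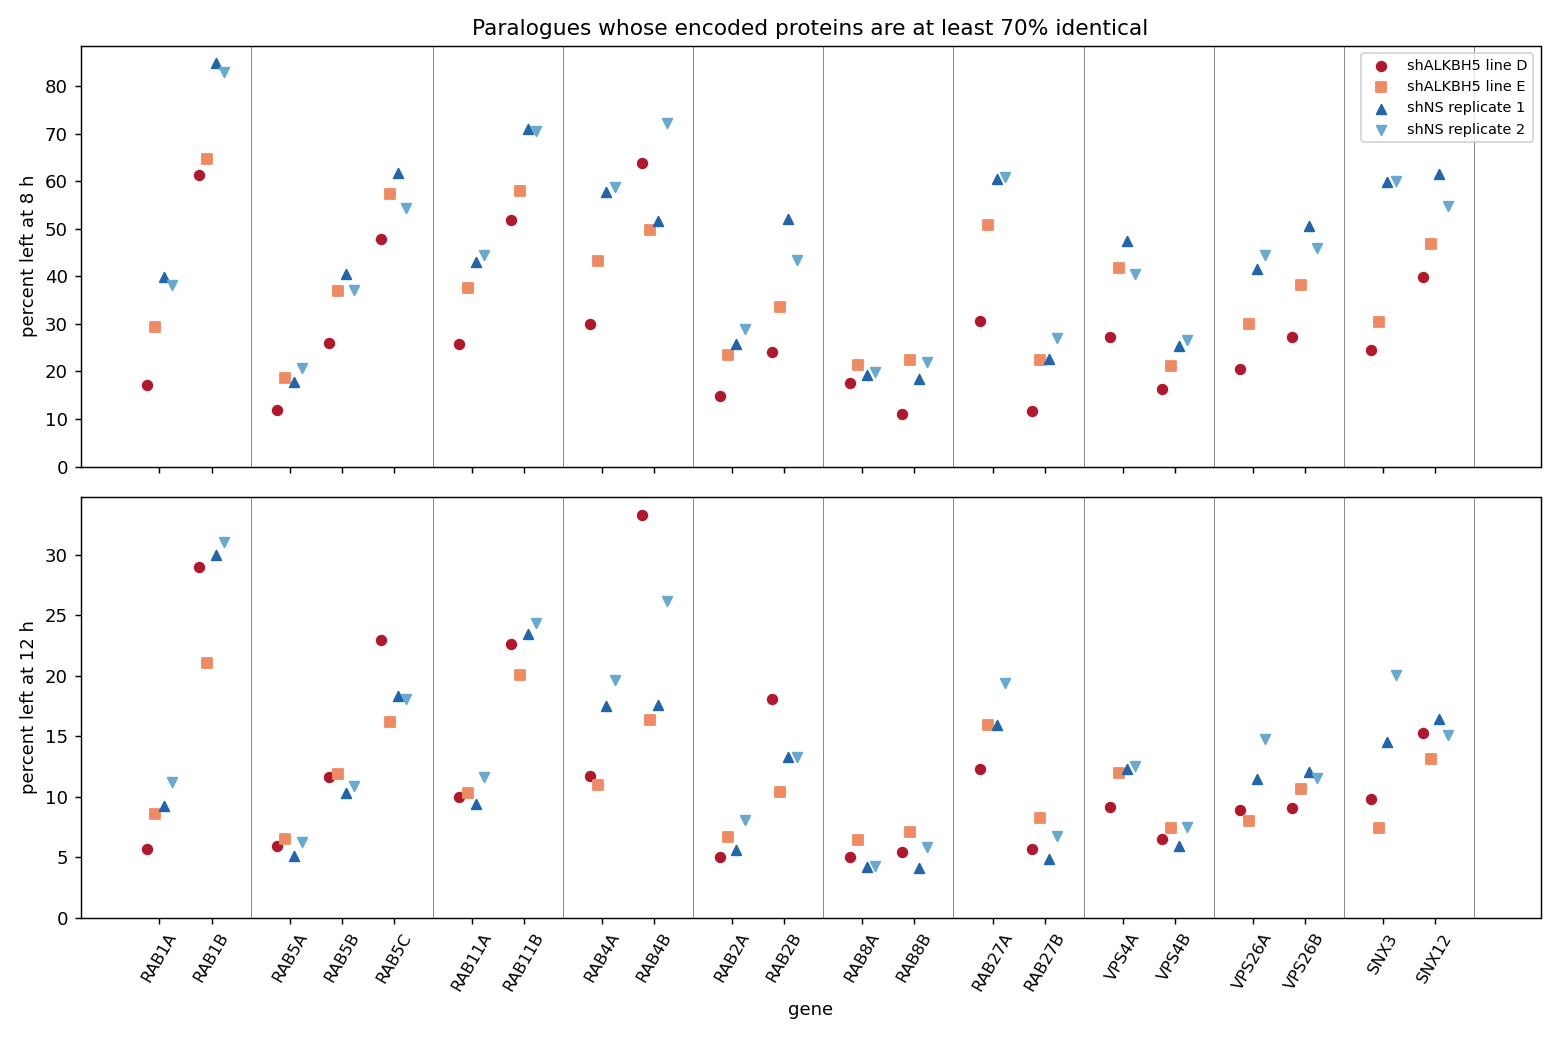
Percent of the 0 h signal left at 8 h (top) and 12 h (bottom) for paralogues whose proteins are at least 70% identical, 1 point per line. RAB1B, RAB5C and RAB11B lie above RAB1A, RAB5A and RAB11A in all 4 lines, while RAB8A and RAB8B overlap at 17.6 to 21.3% and 11.1 to 22.4% at 8 h.

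Other sets separated as well or not at all. RAB27A, a RAB of granule docking, kept 30.7 to 60.9% at 8 h and RAB27B 11.7 to 27.01%, with 45.2 and 41.3% of codons ending in G or C. VPS4A, an ATPase that dismantles ESCRT-III, kept 27.2 to 47.4% and VPS4B 16.2 to 26.6%. SNX1, a membrane-bending nexin of the retromer route, kept 32.3 to 43.5% and its partner SNX2 17.1 to 26.96%. RAB4A and RAB4B, RAB8A and RAB8B, VPS26A and VPS26B, SNX3 and SNX12, and SNX5 and SNX6 overlapped at both times. RAB2A and RAB2B overlapped at 8 h and not at 12 h.

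Across the 95 genes with a coding transcript and a 3′ UTR in GENCODE release 29, Spearman's rho of the mean percent left with 3′ UTR length was -0.357 at 8 h and -0.373 at 12 h. Across all 8681 such genes it was -0.271 and -0.283. With the share of codons ending in G or C it was 0.18 and 0.286 for the 95 genes and 0.296 and 0.386 for all. Genes are not independent replicates and all points share the same libraries, so these are descriptions. Single genes departed widely: RAB21 has a 3′ UTR of 14612 bases and kept a mean of 18.0%, but RAB33A, with 130 bases, kept 8.18%, and RAB20, with 599 bases and 80.3% of codons ending in G or C, had the lowest mean of the 101. The AU-rich motif TATTTAT, searched on the transcript strand in the last 300 bases of the 3′ UTR, occurs in 10 of 90 of the genes (11.1%) and in 10.8% of 7138 genes of the table. Its 10 carriers had a median of 22.9% left at 8 h against 31.7% for the rest of the 90. They ran from 18.6% for SNX18 to 45.5% for VPS36, and RAB5B (35.1%) and SNX25 (34.1%) also lay above that 31.7%. Over all genes the medians were 29.4% with the motif and 33.7% without.

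**Figure D3:**
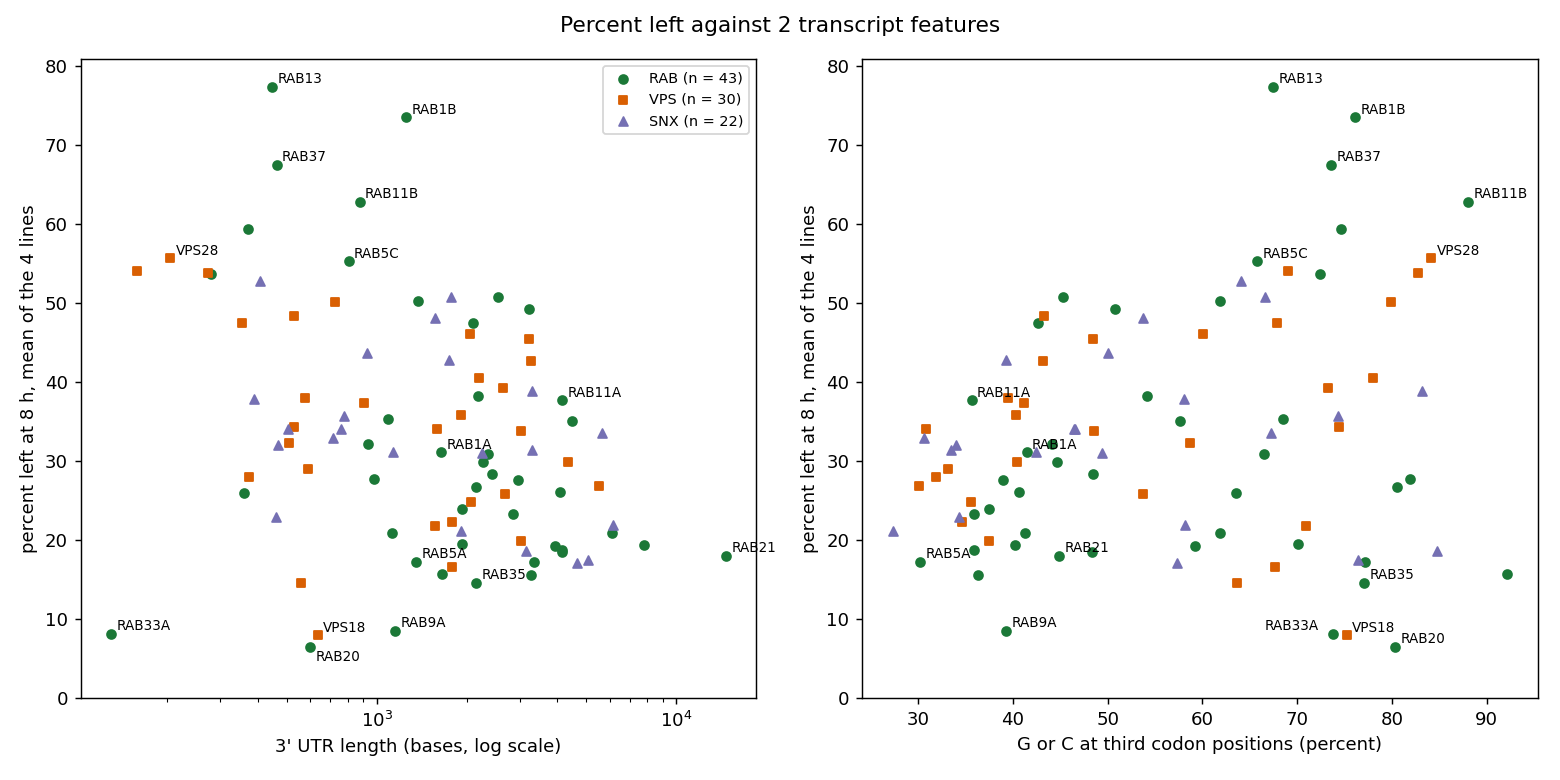
Mean percent left at 8 h over the 4 lines against 3′ UTR length (left, log axis) and against the share of codons ending in G or C (right), 1 point per gene for the 43 RAB, 30 VPS and 22 SNX genes with both features. RAB13, RAB1B and RAB37 lie at the top with G or C shares of 67.5 to 76.1%, and RAB20, VPS18 and RAB33A at the bottom with 73.8 to 80.3%.

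Before actinomycin D, 3 of the 101 genes were higher in the ALKBH5 knockdown. RAB8A (chr19:16111629-16134234), a RAB of transport to the plasma membrane and to cilia, had 194.0 and 139.5 in lines D and E, against 83.8 and 77.1 in shNS. Both lines were above both replicates, and the log2 difference was 1.02 ± 0.20 (SE, adjusted p = 0.037 in limma). SNX11 (chr17:48103357-48123074), an endosomal sorting nexin, had 17.9 and 12.4 in lines D and E, against 6.89 and 6.69 in shNS (log2 difference 1.03 ± 0.20, adjusted p = 0.037). VPS9D1 (chr16:89707134-89720986) had 6.83 and 6.55 in lines D and E, against 3.16 and 3.22 in shNS (0.88 ± 0.19, adjusted p = 0.049). Its antisense RNA VPS9D1-AS1, at 8.32 and 5.39 in lines D and E against 3.33 and 3.41 in shNS, missed the threshold (0.82 ± 0.19, adjusted p = 0.054), and with no counting strand named in the sources, reads of the 2 may be shared. None was lower. Over all genes 1.33% were higher and 0.136% lower, and the median log2 difference was 0.19 for the 101 genes and 0.23 for all. At an unadjusted p under 0.05, 17 were higher (20.5% of all genes) and 1, RAB27B, lower (1.65%). With median-of-ratios scaling or a pseudocount of 0.1 none of the 101 passed, and leaving out 1 library at a time gave 0 to 13 genes.

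Pooled over the 3 times in limma with time as a factor, 12 of the 101 genes were higher and 10 lower in the knockdown, where 11.9% of all genes were higher and 9.14% lower, so the share called (21.8%) was near that of all genes (21.1%). Of the higher genes, RAB8A had the largest log2 difference, 1.08 ± 0.13 (SE, adjusted p = 3.7e-05), with 34.2 and 29.7 in lines D and E against 16.1 and 15.4 in shNS at 8 h, and 9.72 and 8.93 against 3.50 and 3.31 at 12 h. RAB5C, the longest lasting RAB5, had 164.2 and 126.1 in lines D and E against 72.3 and 69.998 in shNS at 0 h, 78.6 and 72.4 against 44.6 and 38.0 at 8 h, and 37.7 and 20.5 against 13.3 and 12.6 at 12 h. Both lines were above both replicates at each time for both genes, and the RAB5C difference was 0.97 ± 0.15 (adjusted p = 0.00034). VPS33A had 42.4 and 20.4 in lines D and E against 14.6 and 13.9 in shNS at 0 h, and 4.85 and 1.89 against 0.845 and 0.815 at 12 h (0.97 ± 0.19, adjusted p = 0.0022). VPS9D1 was higher by 0.77 ± 0.12 (adjusted p = 0.00032).

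The remaining higher genes had smaller differences. They were SNX11 (0.61), RAB35 (0.56), which recycles receptors from the cell surface, VPS9D1-AS1 (0.53), RAB4B (0.48), RAB11B-AS1 (0.47), RAB3D (0.42), a granule RAB, SNX12 (0.41) and SNX15 (0.35), with adjusted p from 0.0052 to 0.048. RAB11B-AS1 overlaps the start of RAB11B and RAB4B overlaps its readthrough transcript, so their reads are uncertain too.

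RAB37 had the largest fall, by 0.90 ± 0.22 on the log2 scale (adjusted p = 0.0087). Its signals were 43.4 and 89.0 in lines D and E, against 98.0 and 91.6 in shNS, at 0 h, then 21.7 and 55.9 against 79.1 and 70.1 at 8 h, and 9.27 and 18.3 against 29.8 and 25.98 at 12 h. Line D was the lowest library at each time, and line E was below both replicates too. Among nexins, SNX3, a retromer adaptor, fell by 0.85 ± 0.29 (adjusted p = 0.041), but its lines disagreed at 0 h, with 137.8 and 49.6 in lines D and E against 109.5 and 82.8 in shNS. At 8 h both lines were low, at 33.9 and 15.1 against 65.5 and 49.8. SNX6 and SNX5, the partners of SNX1 and SNX2, fell by 0.68 and 0.67, and at 12 h they had 2.61 and 1.36, and 6.89 and 12.0, in lines D and E, against 3.34 and 3.49, and 16.7 and 15.8, in shNS.

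Of the other genes that fell across the times, VPS54 of GARP and VPS8 of CORVET fell by 0.65 and 0.57. RAB7A, the RAB of late endosomes and lysosomes, fell by 0.51 (adjusted p = 0.028): at 0 h it had 314.0 and 287.1 in lines D and E against 311.5 and 311.6 in shNS, which overlap, and at 8 h 126.2 and 109.5 against 200.04 and 182.5. RAB27B fell by 0.50, RAB4A by 0.44 and RAB3GAP1, part of the activator of RAB18 and inactivator of RAB3, by 0.41.

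The pooled fit treats libraries of the same line as independent, although deviations of the same letter from the group means correlated at 0.657 to 0.900 between times. On the mean of each line, 5 of the 101 genes passed (5.14% of all genes), namely RAB8A, RAB5C, VPS33A, VPS9D1 and RAB37, and with a correlation of 0.251 estimated within lines 9 passed (9.63%). RAB8A, RAB5C, VPS33A and VPS9D1 passed in every alternative run for them.

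**Figure D4:**
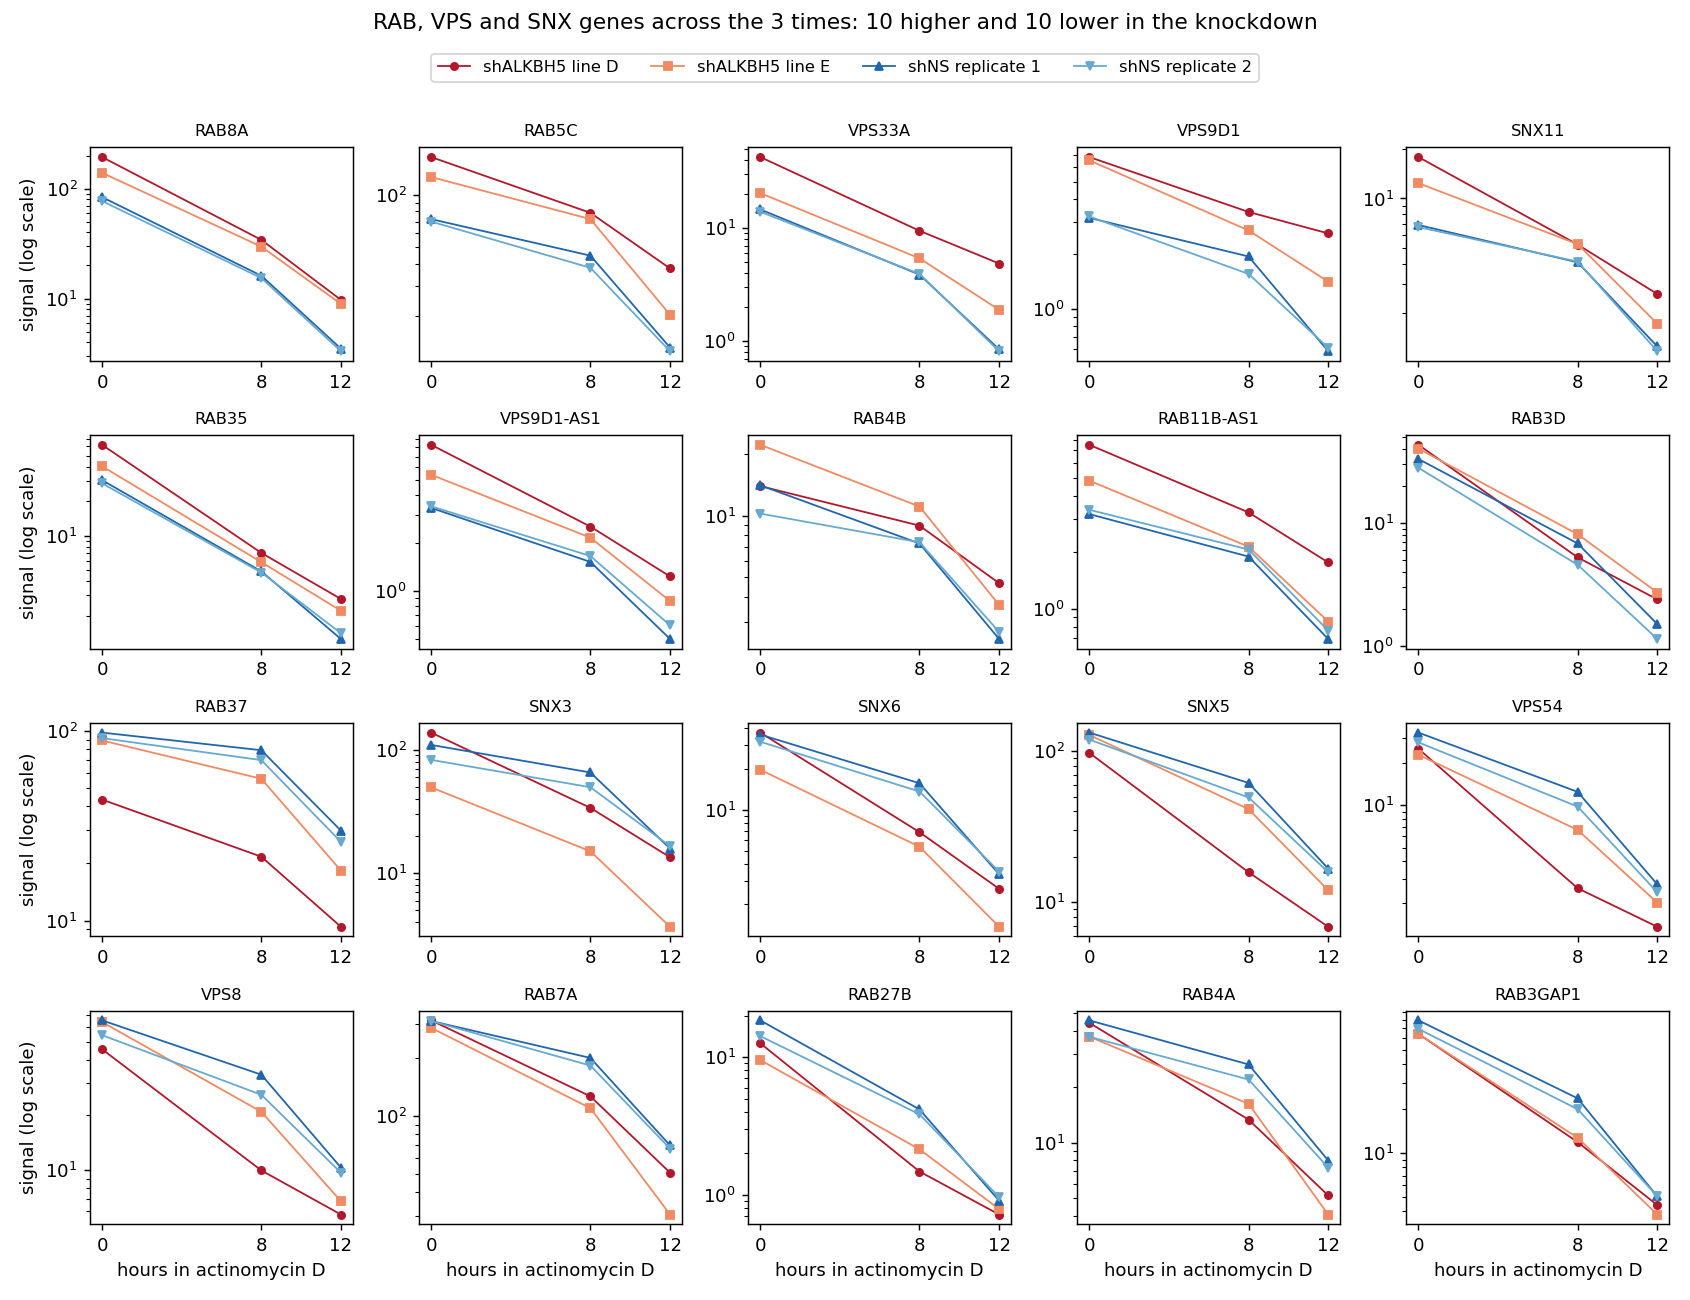
Signal (log axis) against hours in actinomycin D for the 10 genes with the largest rise (top 2 rows) and the 10 with the largest fall (bottom 2 rows) in the fit across times, 1 line per shALKBH5 line or shNS replicate. RAB8A, RAB5C, VPS33A and VPS9D1 keep both shALKBH5 lines above both shNS replicates at all 3 times, whereas SNX3 has line D above and line E below the replicates at 0 h.

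Less RNA was left at 8 h in both knockdown lines than in both shNS replicates for 78 of the 101 genes and more for 0, where 82.5% and 0.903% of all genes did so. The difference of the 8 h change between the arms passed in limma for none of the 101 genes and for 0% of all genes. At an unadjusted p under 0.05 it passed for 9, all more strongly lowered in the knockdown, where 16.3% of all genes were. In simulated data this test recovered 0.5% of log2 changes of 1 and 91.5% of changes of 2. The lack of calls therefore does not show that the arms were alike. The median difference of the 8 h change was -0.42 on the log2 scale for the 101 genes and -0.48 for all. After rescaling to the ERCC mean it was -0.36 for all genes. The counts of genes with less or more RNA left were not repeated with that rescaling. With line and replicate number as a replicate block, 22 of the 101 passed, all lower, where 26.2% of all genes passed in either direction. The block takes shNS libraries of the same number as paired, which no label says, and their deviations correlated at only 0.065 to 0.271 between times. SNX3 led them at -1.10 ± 0.24 (SE, adjusted p = 0.00052), with 24.6 and 30.4% left in lines D and E, against 59.8 and 60.1% in shNS. Without the block the SE of SNX3 was 0.76 and its adjusted p in limma 0.35. SNX14, a nexin of contacts between endoplasmic reticulum and lipid droplets, followed at -0.96 and SNX5 at -0.91. Line D alone gave 69 of the 101 (66% of all genes) and line E alone 1 (1.07%), each against both shNS replicates. In these fits the knockdown has 1 library at each time and is assumed to vary like the shNS pairs, which give all of the spread, so the counts do not test whether the lines differ.

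By 12 h, 29 of the 101 genes had less left in both lines than in both replicates (41.2% of all genes) and 14 had more (12.1%). No gene passed the difference of the 12 h change (0% of all genes), 1 did so at an unadjusted p under 0.05, RAB7A, lower in the knockdown (3.37% of all genes), and 1 with the replicate block (2.33%). VPS33A was among those with more left, at 11.5 and 9.30% in lines D and E, against 5.79 and 5.86% in shNS, and VPS9D1 kept 38.0 and 21.5% against 18.5 and 19.0%. SNX3 had less, at 9.79 and 7.44% against 14.5 and 20.03%.

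The knockdown lines also differed from each other. In limma with time as a factor, line D minus line E passed for 15 higher and 17 lower genes, where 14.2% of all genes were higher and 14.9% lower, so this share too was near that of all genes. Each side is 1 line, whose 3 times are taken as independent. On the mean of each line, an alternative chosen after seeing the data in which the spread comes from the shNS replicates alone, 12 genes were higher and 10 lower (17.7% of all genes passed in either direction). SNX3 was highest in line D relative to line E, by 1.40 ± 0.18 on the log2 scale (SE, adjusted p = 2.7e-12). VPS33A differed by 0.92 and VPS26A of the retromer by 0.84. VPS26A had 66.5 and 31.5 in lines D and E at 0 h, against 38.8 and 29.02 in shNS. VPS18 differed by 0.75, with 52.9 and 28.3 in lines D and E at 0 h, against 21.8 and 21.2 in shNS. RAB20 (0.78), RAB11FIP1 (0.68), an effector of RAB11, RAB18 (0.67), SNX6 (0.60), RAB13 (0.58) and RAB22A (0.55) were also higher in line D.

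RAB28, an atypical RAB of cilia, was lowest in line D relative to line E, by -1.44 ± 0.18 (adjusted p = 2.4e-13). It had 9.38 and 26.7 in lines D and E at 0 h, against 24.9 and 21.5 in shNS, and 1.77 and 9.65 against 9.55 and 7.60 at 8 h, so line E stayed near shNS while line D was far below. RAB37, described above, differed by -1.09 and RAB44, a large RAB of granules in immune cells, by -1.07, with 45.0 and 104.1 at 0 h in lines D and E, against 86.9 and 74.7 in shNS. RAB11FIP5 (-1.01), VPS25 of ESCRT-II (-0.96), RAB33A (-0.90), SNX5 (-0.82), VPS37A of ESCRT-I (-0.76), RAB6A of the Golgi (-0.75) and VPS28 (-0.73) were lower in line D as well. Of the 8 ESCRT genes with VPS symbols, 4 were lower in line D and none higher, where 14.9% of all genes were lower and 14.2% higher. Of 20 other ESCRT genes 2 were lower and 2 higher. The VPS list is small and 1 of several by role. Of 8 HOPS, CORVET and related tethers 2 were lower and 2 higher, and of 9 RABs of early endosomes 2 were lower and 3 higher. With 1 line per hairpin, the hairpin and the line cannot be told apart.

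**Figure D5:**
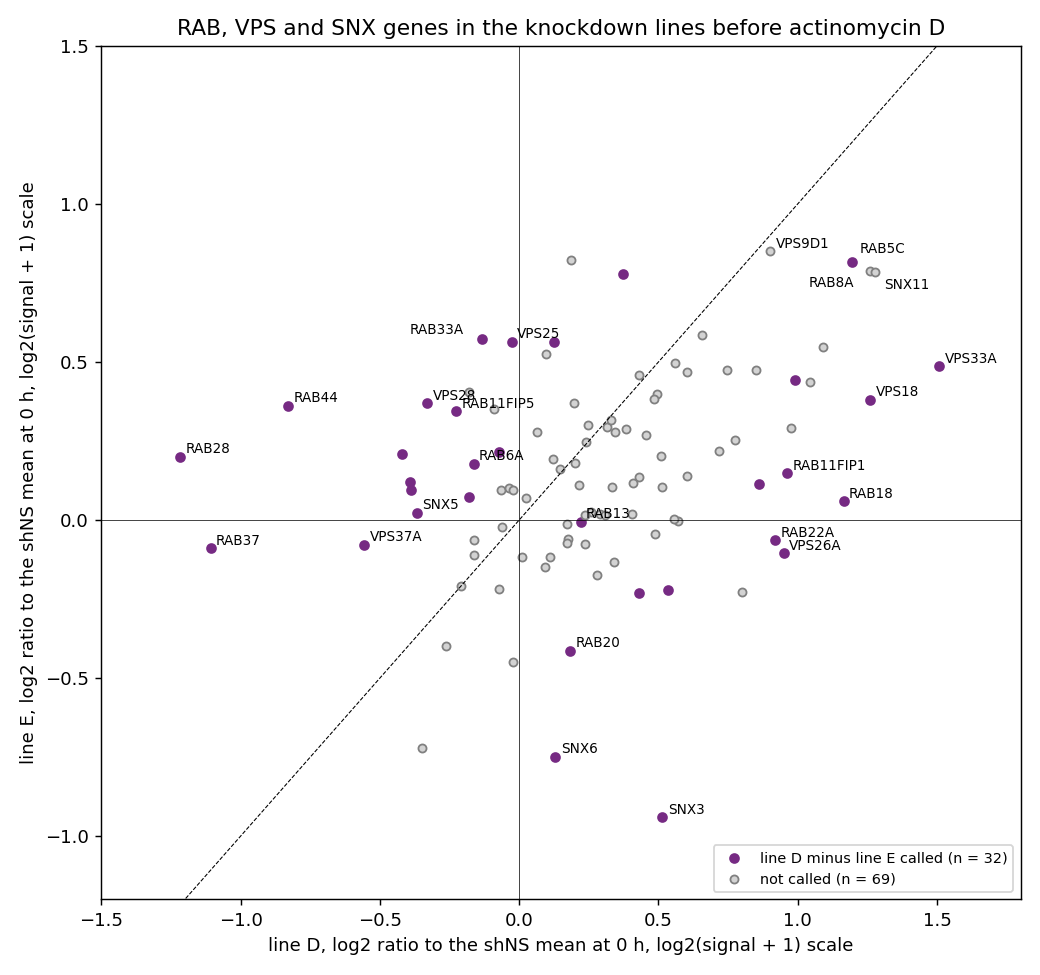
Log2 ratio to the shNS mean at 0 h in line D (x axis) and line E (y axis) for the 101 genes, with filled points for the 32 that differed between the lines across times. RAB8A, SNX11, RAB5C and VPS9D1 lie above 0 on both axes, while RAB28, RAB37 and RAB44 lie at -1.22 to -0.83 in line D and -0.09 to 0.36 in line E.

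Trafficking genes with other symbols, taken from lists of their roles, moved in both directions across the times, where 11.9% of all genes were higher and 9.14% lower. Of 36 RAB cycle factors in the table, 6 were higher and 4 lower, among them RABGGTA, a subunit of the enzyme that attaches lipids to RABs (0.38 ± 0.12), and TBC1D5, a RAB7 inactivator that binds the retromer, which fell by 1.03 ± 0.15 (adjusted p = 0.00024 in limma). DENND5A fell by 1.21 ± 0.20 (adjusted p = 0.00071). Of 35 coat proteins 6 were higher, such as the clathrin chains CLTB (0.39) and CLTC (0.44), and 2 lower, both SEC24 genes of the COPII coat. Of 34 genes of SNAREs and of proteins that act on them, 7 were higher and 3 lower. The higher ones included the SNARE SEC22B (0.77) and NAPA (0.77), which is not itself a SNARE. Of 20 ESCRT genes outside the VPS set 2 were higher, CHMP6 (0.53) and CHMP1A (0.51), and 0 lower. Of these 125 genes, 3 were higher and 3 lower with the correlation estimated within lines, where 9.63% of all genes passed in either direction. On line means 0 were higher and 2 lower, DENND5A and TBC1D5, where 5.14% of all genes passed.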

How the data were processed

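The authors deposited 1 table of expression signal per gene symbol for 12 poly(A) libraries, made with STAR and RSEM on GRCh38 per the submitters' processing notes. The sources used here give no versions, counting strand or unit before scaling. The deposited signal follows 46 ERCC spike-in transcripts, holds no counts, and gives no depth, so no counting interval is given. Genes were tested as log2(signal + 1), where 1 is the pseudocount, with limma 3.58.1 in R 4.3.3 (mean-variance trend, Benjamini-Hochberg over 9529 genes with a mean of at least 1, adjusted p under 0.05). Such fold changes understate the change of low genes. Comparisons at 0 h, over time and between the changes of the arms came from a model with a mean for each of the 6 groups, the comparison across times from time and knockdown, and that of the lines from time and line. Percent left divides the signal at 8 or 12 h by that at 0 h in the same line or replicate. The letter of a knockdown line marks the same hairpin at each time, with deviations correlated at 0.657 to 0.900 between times. For the shNS replicate numbers they were 0.065 to 0.271, and nothing else ties these numbers across times. Named genes were those called at 0 h, up to 10 in each direction across times and between the lines, the 8 with most and the 8 with least RNA left at each time, and paralogues. The genes, lists and tests were chosen with earlier results of these data known. Transcript features, sequences and coordinates are from GENCODE release 29 (96 of the 101 genes have a coding transcript), with proteins aligned in Biopython 1.88. For each gene 1 coding transcript was taken, by annotated principal rank, then the longest coding sequence, then the longest transcript. Some markers and sequences are not reported here. The fits were tested on simulated data. Alternatives were other filters, pseudocounts and scalings, limma without trend, a replicate block, each line alone, line means (for the lines added after seeing the data), a correlation within lines, and leaving out libraries or times.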

Additional observations from a re-analysis of the deposited data

Results flagged for a closer look

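The signal differed between knockdown lines D and E, by limma's test of the difference across the 3 times, for the 20 genes named here. They are the 10 largest in each direction, and 29.1% of all genes passed this test. Each side is 1 line whose 3 times are taken as independent, so the hairpin and the line cannot be told apart. As line D minus line E on the log2 scale, SNX3 differed by 1.40, VPS33A by 0.916, VPS26A by 0.842, RAB20 by 0.778, VPS18 by 0.747, RAB11FIP1 by 0.675, RAB18 by 0.669, SNX6 by 0.598, RAB13 by 0.577 and RAB22A by 0.552. In the other direction RAB28 differed by -1.44, RAB37 by -1.09, RAB44 by -1.07, RAB11FIP5 by -1.01, VPS25 by -0.964, RAB33A by -0.896, SNX5 by -0.817, VPS37A by -0.756, RAB6A by -0.755 and VPS28 by -0.727. RAB13, RAB22A and SNX6 lost the call in 4, 2 and 4 of 18 alternatives, and the other 17 genes kept it in all of theirs.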

How the results depend on the processing

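No gene named for the knockdown or for line D minus line E changed direction in the alternatives run, but with median-of-ratios scaling 14 and 10 genes passed as higher at 8 h in shALKBH5 and shNS, and 13 and 14 at 12 h, where none did as reported. The counts here are of the 101 genes past an adjusted p of 0.05 in limma, and the cause of each shift was not tested. At 0 h, 3 genes passed as reported, 0 with a pseudocount of 0.1, 0 with median-of-ratios scaling (which moved the median log2 difference of all genes to -0.01, against 0.23), 47 with line D standing alone for the knockdown (41 higher, 6 lower, 52.5% of all genes called) and 22 with line E (18 higher, 4 lower, 21.8%). Fits with a line alone have 1 knockdown library at each time, assumed to vary like the shNS pairs. Leaving out 1 library gave 0 to 13: 0 without line D at 0 h or without any shNS library, and 13 without line E at 0 h. Across times, 22 passed as reported, 38 with median-of-ratios scaling (19 higher, 19 lower), 35 with line D alone, 43 with line E alone, 5 on line means, 9 with the correlation within lines, 6 without the 12 h libraries (5 higher, 1 lower), 13 without the 8 h libraries (12 higher, 1 lower) and 12 to 26 without 1 library. The fewest, 12, came without either shNS replicate of the 12 h group, 13 without shNS replicate 2 of the 8 h group, and 14 without line D at 12 h or without shNS replicate 1 at 0 h. SNX3, RAB3D, RAB4A and RAB3GAP1 lost the call across times in 14, 14, 13 and 12 of 23 alternatives. Under median-of-ratios scaling 37 and 36 genes passed the 8 h change in shALKBH5 and shNS, and 38 and 44 the 12 h change. The difference of the 8 h change went to 22 genes with the replicate block, 69 with line D alone and 1 with line E alone, and that of the 12 h change to 1, 6 and 3. With the block the 8 h and 12 h changes within an arm gave 99 to 101 genes. No analysis paired by line was possible for the knockdown at 0 h or across times because each line belongs to 1 arm. Line D minus line E compares the lines themselves, which the fit matched by time. Line D minus line E gave 32 genes as reported, 56 with median-of-ratios scaling, 22 on line means, and 19 (without line E at 8 h) to 43 (without line D at 8 h) without 1 library. The median percent left was averaged over the 2 lines or replicates of an arm. It was 25.1 and 38.3 in shALKBH5 and shNS at 8 h, and 9.65 and 10.4 at 12 h. The 25.1 averages 19.4 in line D and 30.8 in line E. With median-of-ratios scaling, which removes the common decline, the averages were 88.8 and 94.8 at 8 h, and 88.9 and 84.5 at 12 h. After rescaling to the ERCC mean they were 11.1 in shALKBH5 and 11.9 in shNS at 12 h. For genes with a mean of at least 5 the shALKBH5 average at 12 h was 9.29. No gene fell under the mean of 1, so testing without a filter is void. The lack of counts leaves the precision of low signals unknown.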
